A study of Mus musculus with 4 samples.

Results

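The 45 genes described here encode proteins that copy the genome and divide the cell. They were taken by symbol from a list, and all 45 were found among the 22056 genes of both expression tables. 27 of them act in G2 phase or mitosis and are called the mitotic members. 17 act in DNA replication or its onset and are called the replication members. Stmn1, a regulator of microtubules that many resting cells also make, was kept apart from both sets.

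RNA was measured by droplet single-cell sequencing (10x Genomics, 3′ tags, version 3.1 chemistry) in CD4+ TCRβ+ YFP+ T cells sorted from C57BL/6 mice at more than 95% purity and labelled as regulatory T (Treg) cells. Treg cells hold immune responses in check, and Foxp3 is the factor that defines them. ICOS is a costimulatory receptor that activated T cells display. In the challenged condition, 1 day had passed since oxazolone, a hapten that provokes skin inflammation, and cells were taken from the draining cervical lymph node (LN), and 1 library was labelled ICOS FC (ICOS-deficient) and 1 ICOS WT. In the steady state, cells came from the spleen, again with 1 library labelled ICOS FC and 1 labelled ICOS WT. No source used here states the driver of the deletion, the number and age of the mice, or any pooling. Tissue and challenge changed together, so the LN and the spleen differ by both and these cannot be told apart. With 1 library per group no difference has a replicate check, nothing was tested, and each interval covers counting error only.

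A dividing cell first loads the MCM helicase onto replication origins, a step called licensing, with the help of Cdc6 and Cdt1. It then makes nucleotides and copies its DNA around the sliding clamp PCNA. Cyclins A and B with the kinase Cdk1 drive entry into mitosis, where the Aurora and Polo-like kinases build the spindle and the kinetochores tie chromosomes to it. A checkpoint holds the anaphase-promoting complex (APC/C) until every chromosome is attached. Most genes of mitosis are transcribed from G2 phase on, whereas genes of licensing and replication come on late in G1 phase. T cells divide after antigen meets their receptor, and a part of the Treg pool divides even without infection.

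The promoters of the 2 groups differ in known elements, and those of the members with the most LN UMIs (unique molecular identifiers, each standing for one captured transcript) are shown here because the mitotic members differed together between the LN libraries. The cell cycle genes homology region, or CHR, is bound by the MuvB complexes that time G2 and mitotic genes, the CCAAT box by NF-Y, and E2F cores by the E2F family. RefSeq windows of 300 bases (GRCm38.p6, 250 before the start and 50 from it) matched 36 of the 45 members. Aurkb, Ccna2, Ccne2, Gins2, Kif20a, Mcm4, Spc24, Stmn1 and Tpx2 were not searched. Letters searched on both strands were TTTGAA and TTCGAA for CHR, CCAAT for the CCAAT box, and TTGGCGC and TTCCCGC for an E2F core. Overlapping matches each counted, and ATTGG, the reverse of CCAAT, can share letters with TTGGCGC. CHR letters stood in 18 of 23 windows of mitotic members (78.3%) and in 2 of 16 windows of replication members (12.5%), against 19.2% of all 32851 windows. E2F cores stood in 3 of the 23 mitotic windows (13.0%) and in 10 of the 16 replication windows (62.5%), against 6.81% of all windows. CCAAT letters stood in 82.6% of mitotic and 75.0% of replication windows, against 37.4% of all. The windows shown are Top2a (chr11:99024140-99024439, minus strand), Cenpa (chr5:30666636-30666935, plus strand), Birc5 (chr11:117848987-117849286, plus strand), Mki67 (chr7:135716330-135716629, minus strand), Pclaf (chr9:65890073-65890372, plus strand), Mcm6 (chr1:128359656-128359955, minus strand) and Mcm3 (chr1:20820263-20820562, minus strand). Each reads 5′ to 3′ on its gene's strand, and capitals mark any of the searched letters.
Top2a: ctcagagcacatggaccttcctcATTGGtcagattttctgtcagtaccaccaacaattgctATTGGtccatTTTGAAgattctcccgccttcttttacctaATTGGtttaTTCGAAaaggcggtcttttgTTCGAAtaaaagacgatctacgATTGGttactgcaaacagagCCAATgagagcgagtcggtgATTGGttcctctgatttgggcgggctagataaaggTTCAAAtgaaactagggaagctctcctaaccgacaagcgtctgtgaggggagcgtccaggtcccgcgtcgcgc
Cenpa: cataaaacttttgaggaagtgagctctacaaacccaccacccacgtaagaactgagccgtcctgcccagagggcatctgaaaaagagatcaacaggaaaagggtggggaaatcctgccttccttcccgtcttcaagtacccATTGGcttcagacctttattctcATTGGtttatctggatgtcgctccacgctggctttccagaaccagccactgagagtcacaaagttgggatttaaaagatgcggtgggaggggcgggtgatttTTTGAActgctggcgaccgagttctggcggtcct
Birc5: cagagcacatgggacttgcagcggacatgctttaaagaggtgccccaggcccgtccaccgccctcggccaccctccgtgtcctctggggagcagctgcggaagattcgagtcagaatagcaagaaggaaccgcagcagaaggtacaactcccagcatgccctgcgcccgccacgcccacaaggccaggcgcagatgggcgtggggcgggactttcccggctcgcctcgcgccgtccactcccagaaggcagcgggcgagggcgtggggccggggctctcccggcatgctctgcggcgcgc
Mki67: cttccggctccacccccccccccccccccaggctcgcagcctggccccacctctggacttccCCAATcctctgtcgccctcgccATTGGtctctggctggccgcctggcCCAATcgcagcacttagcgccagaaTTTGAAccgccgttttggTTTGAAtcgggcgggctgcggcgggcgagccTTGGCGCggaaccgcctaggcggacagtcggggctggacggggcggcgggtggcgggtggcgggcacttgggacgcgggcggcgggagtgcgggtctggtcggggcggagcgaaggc
Pclaf: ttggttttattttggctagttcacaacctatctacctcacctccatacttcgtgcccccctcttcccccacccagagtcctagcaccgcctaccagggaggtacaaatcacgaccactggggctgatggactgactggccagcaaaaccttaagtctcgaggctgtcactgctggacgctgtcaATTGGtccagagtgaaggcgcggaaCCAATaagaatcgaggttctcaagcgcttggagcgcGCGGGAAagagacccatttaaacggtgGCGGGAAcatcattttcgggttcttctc
Mcm6: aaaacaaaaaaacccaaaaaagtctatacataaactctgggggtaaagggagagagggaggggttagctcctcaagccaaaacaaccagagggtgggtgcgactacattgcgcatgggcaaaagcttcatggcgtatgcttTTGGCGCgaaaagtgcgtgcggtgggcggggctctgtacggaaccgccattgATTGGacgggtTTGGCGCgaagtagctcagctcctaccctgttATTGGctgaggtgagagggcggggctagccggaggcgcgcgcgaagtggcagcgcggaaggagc
Mcm3: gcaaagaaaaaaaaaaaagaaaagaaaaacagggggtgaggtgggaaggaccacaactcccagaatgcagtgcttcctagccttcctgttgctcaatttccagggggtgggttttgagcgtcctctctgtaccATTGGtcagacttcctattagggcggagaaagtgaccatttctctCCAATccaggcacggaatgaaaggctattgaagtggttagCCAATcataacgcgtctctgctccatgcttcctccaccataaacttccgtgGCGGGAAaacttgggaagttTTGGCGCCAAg
Top2a carried 4 CHR and 6 CCAAT matches and no E2F core, and Pclaf, Mcm6 and Mcm3 carried E2F and CCAAT letters and no CHR. None of the searched letters stood in the Birc5 window. A match is a description of letters and not of binding. Gene coordinates below are of GRCm38 too.

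The labels give 12000 as the total of cells prepared for the library. The LN libraries held 2066 cells labelled ICOS FC and 1897 labelled ICOS WT, with 17330489 and 15045805 UMIs under those labels, and the spleen libraries 5917 and 4995 cells, with 28256866 and 27183614 UMIs. Median UMIs per cell were 6789 under ICOS FC and 6591 under ICOS WT in the LN, and 4361 and 5044 in the spleen. Levels are counts per 1000000 UMIs of a library (CPM). A 3′ tag counts a transcript once whatever its length, so levels of different genes were set side by side. 3 UMIs, the floor for a gene not seen, equal 0.173 CPM under ICOS FC and 0.199 CPM under ICOS WT in the LN and 0.106 and 0.110 CPM in the spleen. Icos itself stood at 928 CPM under ICOS FC and 599 CPM under ICOS WT in the LN, and at 258 and 112 CPM in the spleen. The transcript was thus higher in the libraries labelled ICOS FC, against the direction of the label, and no source used here names the deleted part of the gene, so 3′ tags do not check it. Below, "under ICOS FC" and "under ICOS WT" mean in the library so labelled, and every direction is between libraries by these labels. Foxp3 was seen in 38.9% of LN cells under ICOS FC and 37.3% under ICOS WT, and in 21.8% and 20.8% of spleen cells. The 4 Treg markers Foxp3, Il2ra, Ikzf2 and Ctla4 were present in all 4 libraries, at summed levels of 2316 CPM under ICOS FC and 1889 CPM under ICOS WT in the LN, and of 1163 and 1038 CPM in the spleen.

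Cell barcodes were shared between libraries. In the LN 30 barcodes occurred in both libraries, and in 27 of these pairs the shallower cell held 2.21% to 2.96% of the UMIs of the deeper one. The deeper cell was the one labelled ICOS FC in 21 of the 27 pairs and ICOS WT in 6. Among cells with a shared barcode, 18 under ICOS FC and 11 under ICOS WT were mitotic-set cells as defined below. The spleen libraries shared 8 barcodes, with 3 such pairs, each with the deeper cell under ICOS FC, and 2 of the spleen set cells under ICOS FC had a shared barcode. An LN and a spleen library shared 1 to 10. The LN shares of mitotic-set cells and the LN count of higher members are given with and without these cells. All other results below include them.

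In the LN, mitotic transcripts came from a few cells that made many of them. A cell was called a mitotic-set cell when at least 5 of the 27 mitotic members were detected in it. In the LN 127 of 2066 cells under ICOS FC (6.15%, exact binomial 95% interval 5.15 to 7.27) and 96 of 1897 under ICOS WT (5.06%, 4.12 to 6.14) met this, so the intervals overlapped. In the spleen 21 of 5917 cells under ICOS FC (0.355%, 0.220 to 0.542) and 20 of 4995 under ICOS WT (0.400%, 0.245 to 0.618) did. Mitotic-set cells were thus more than 10 times as frequent in the LN under either label, and their shares under the 2 labels were not distinguishable at this depth in either tissue. Without the cells of shared barcodes the LN shares were 5.35% under ICOS FC and 4.55% under ICOS WT.

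The LN set cells held 89.8% of all mitotic UMIs under ICOS FC and 80.8% under ICOS WT, and the spleen set cells 34.3% and 16.5%. Of the UMIs of all genes, the LN set cells held 17.7% under ICOS FC and 12.3% under ICOS WT. Outside the set cells the mitotic members were at 115 CPM under ICOS FC and 114 CPM under ICOS WT in the LN, and at 101 and 96.7 CPM in the spleen. The definition itself keeps that level low, since each such cell shows under 5 members, and the part of RNA free in the droplets in it was not tested. Inside the set cells the level was 4670 CPM under ICOS FC and 3426 CPM under ICOS WT in the LN, and 3808 and 1793 CPM in the spleen. A set cell of the LN had a median of 54 mitotic UMIs under ICOS FC and 23 under ICOS WT, and the highest had 601 and 514. In the LN, 50% of all mitotic UMIs sat in 24 cells under ICOS FC and in 14 under ICOS WT.

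How many members a cell showed differed more between the LN labels than how many cells passed the threshold of 5. Cells with at least 12 mitotic members, a count chosen after the values were seen, were 76 under ICOS FC (3.68%, 2.91 to 4.58) and 43 under ICOS WT (2.27%, 1.65 to 3.04) in the LN, where the intervals just overlapped, and 9 and 4 in the spleen. Those LN cells held 85.3% of mitotic UMIs under ICOS FC and 70.5% under ICOS WT. Cells with 5 to 11 members were in near-equal numbers, 51 under ICOS FC and 53 under ICOS WT. Depth moved with these counts. Set cells of the LN had a median of 22588 UMIs under ICOS FC and 18482 under ICOS WT, and other cells 6570 and 6517. After every cell was thinned to 2000 UMIs, 3.04% of LN cells under ICOS FC (2.33 to 3.89) and 1.53% under ICOS WT (1.02 to 2.21) kept at least 5 mitotic members, and these intervals did not overlap. At 3 members, a threshold added after the values were seen, the thinned shares were 3.94% (3.13 to 4.88) under ICOS FC and 2.63% (1.94 to 3.47) under ICOS WT, and the intervals overlapped. Without the 5% of cells with most UMIs, 2.80% of LN cells under ICOS FC and 2.61% under ICOS WT had at least 5.

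**Figure D1:**
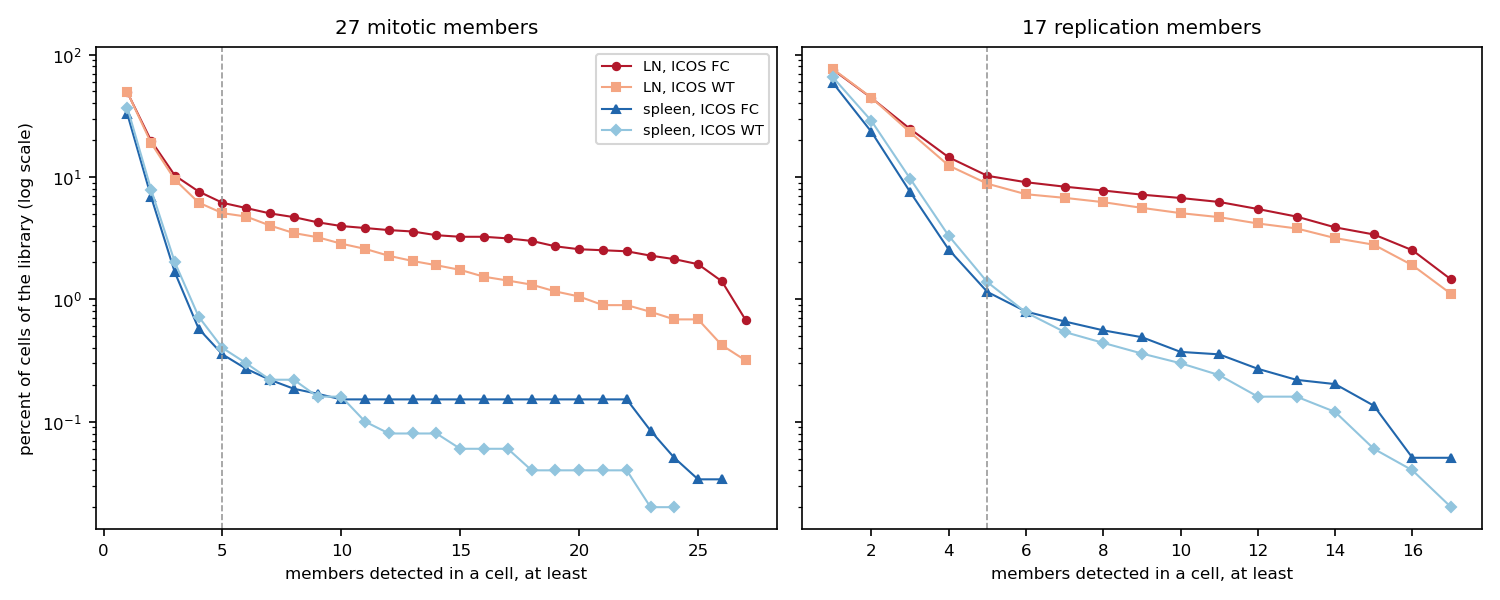
Percent of the cells of each library (log axis) in which at least the number of mitotic members (left) or replication members (right) on the horizontal axis was detected; the dashed line marks 5 members. The LN lines run far above the spleen lines, and the 2 LN lines part most on the right of the mitotic panel, where 76 cells under ICOS FC and 43 under ICOS WT show at least 12 members.

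Replication members were detected together in more cells than mitotic members. At least 5 of the 17 were detected in 211 LN cells under ICOS FC (10.2%, 8.94 to 11.6) and 167 under ICOS WT (8.80%, 7.57 to 10.2), and in 68 (1.15%) and 69 (1.38%) spleen cells. At least 12 were detected in 113 LN cells under ICOS FC (5.47%, 4.53 to 6.54) and 79 under ICOS WT (4.16%, 3.31 to 5.16). Both sets passed in 114 LN cells under ICOS FC and 79 under ICOS WT. Another 97 cells under ICOS FC and 88 under ICOS WT passed for replication alone, whereas 13 and 17 passed for mitosis alone. Mitotic-set cells of the LN held 68.1% of replication UMIs under ICOS FC and 59.2% under ICOS WT, against 13.1% and 8.43% in the spleen. The same LN cells held 17.7% and 12.3% of the UMIs of all genes.

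The set cells carried Treg markers and higher sums of CD8 T, NK and B cell markers. At equal depth Foxp3 was seen in a smaller share of set cells than of other cells, and Il2ra in a larger one. Of the 4 Treg markers only these 2, which point opposite ways, are given for set cells, and without intervals. Set cells under 2000 UMIs, 11 under ICOS FC and 19 under ICOS WT, are left out at equal depth. Foxp3 was seen in 41.7% of LN set cells under either label, against 38.7% of other cells under ICOS FC and 37.1% under ICOS WT. At 2000 UMIs per cell these shares became 6.90% of set cells and 14.7% of other cells under ICOS FC, and 6.49% and 14.4% under ICOS WT. Il2ra, the high-affinity IL-2 receptor chain, was seen in 60.3% of set cells and 51.8% of other cells under ICOS FC at that depth, and in 64.9% and 43.6% under ICOS WT. The 6 markers of CD8 T and NK cells summed to 182 CPM in set cells and 57.1 CPM in other LN cells under ICOS FC, and to 294 and 160 CPM under ICOS WT, with Ncr1 and Klrb1c at 0 in set cells of both libraries. The 5 B cell markers summed to 306 and 174 CPM under ICOS FC and to 343 and 139 CPM under ICOS WT. Cd74 made up 280.4 CPM of the set cells' sum under ICOS FC and 330.2 CPM under ICOS WT. Cd79a and Ms4a1 had 1 and 2 UMIs in set cells under ICOS FC and were at 0 in those under ICOS WT. Doublets were not called here. The part of other cell types, doublets and depth in these counts was not tested.

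Between the LN libraries as wholes, most mitotic genes were higher under ICOS FC by a rule of size, and most replication genes had smaller ratios in the same direction. By this rule a gene counted as higher when the mean of the 2 libraries was at least 5 CPM, the ratio at least 1.5-fold and the exact Poisson interval of the ratio clear of equality. In the LN 26 of the 45 members were higher under ICOS FC and none was lower, where 1.69% of all 8555 genes at that level were higher and 1.82% lower. Ratios of single genes below are log2 of ICOS FC over ICOS WT, with that 95% interval in brackets. The 26 were 24 of the 27 mitotic members, 1 of the 17 replication members (Pclaf) and Stmn1. On the log2(CPM + 0.5) scale, the median ratio of ICOS FC over ICOS WT was 0.83 over the mitotic members, 0.21 over the replication members and -0.04 over all genes at level. All 17 replication members had ratios above 0, and 9 of them had intervals above equality, as did all 27 mitotic members. These Poisson intervals treat each UMI as its own draw, and are too narrow where 24 and 14 cells hold 50% of the UMIs. Without cells of shared barcodes, without the shallower cell of each, or without cells under 2000 UMIs, 27 members were higher.

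The count depended on how cells were weighed. With each cell given the same weight, as the mean of its own CPM, 7 of 42 members at level were higher. With clusters weighted equally 6 of 45 were. These 2 weightings used the 1.5-fold cut without an interval. With every cell thinned to 2000 UMIs, 10 of 36 were higher and 1 lower. Without the 5% of cells with most UMIs 17 of 34 were higher. The share of all genes that passed under each of these settings is not given here, so these counts have no background beside them.

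**Figure D2:**
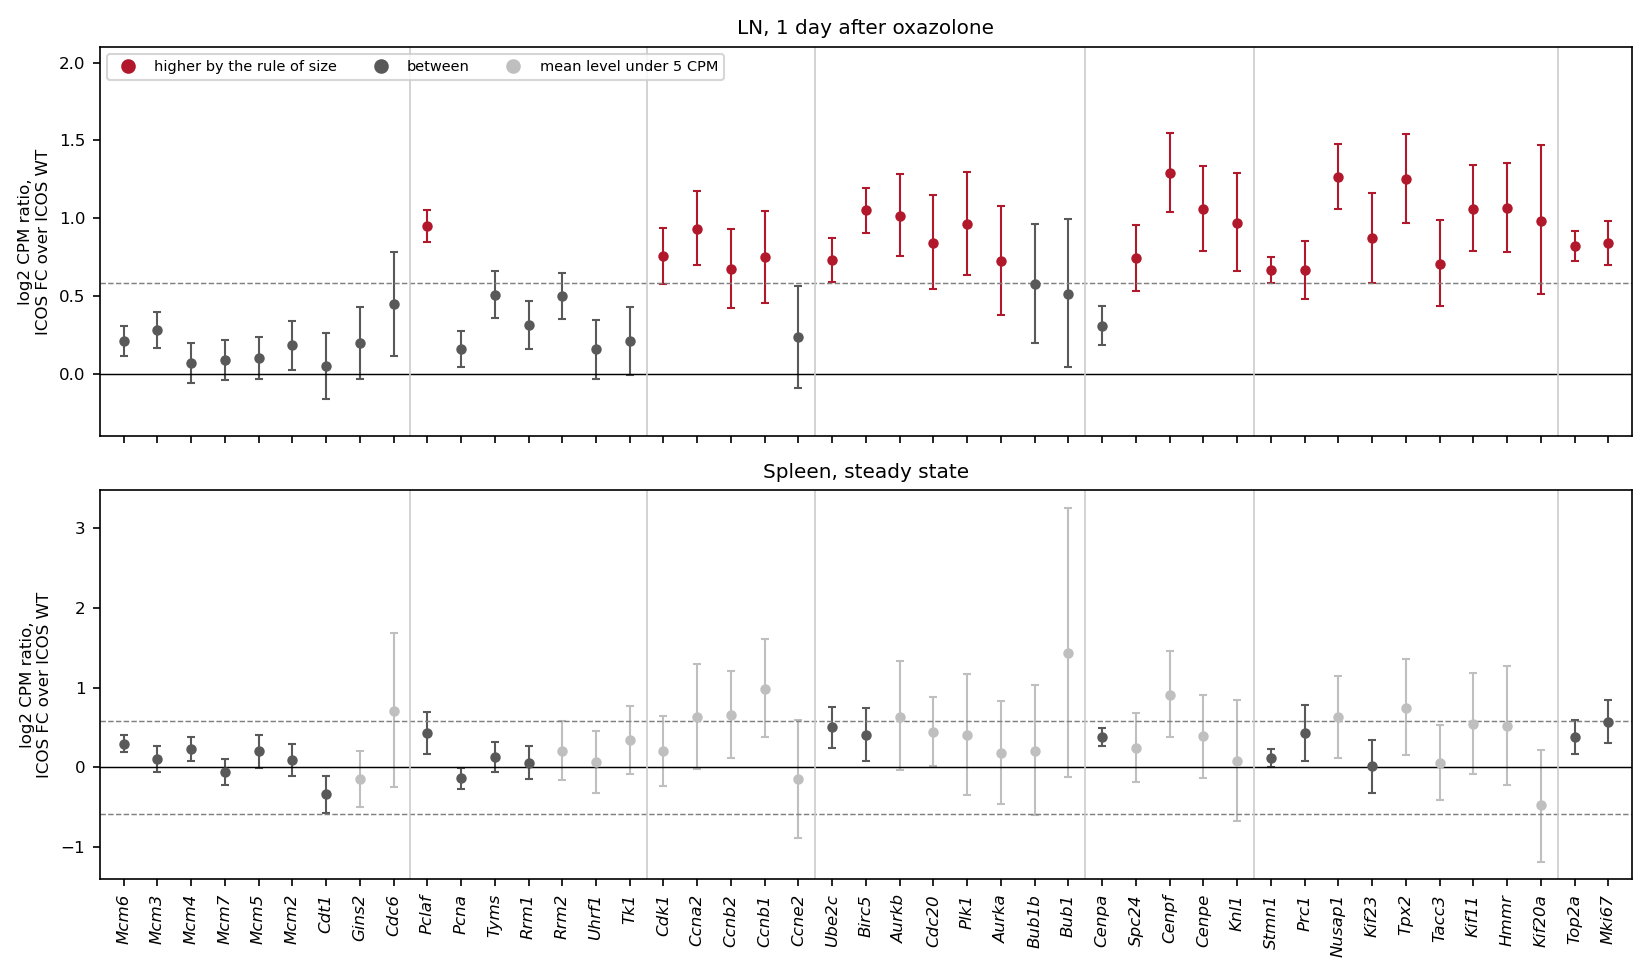
Log2 ratio of the CPM of each member, library labelled ICOS FC over library labelled ICOS WT, with exact Poisson 95% intervals for counting error, in the LN (top) and spleen (bottom, wider axis); dashed lines mark 1.5-fold. In the LN the 26 red members are 24 mitotic members, Pclaf and Stmn1, and lie above 1.5-fold, and in the spleen no member at level passed.

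In the spleen none of the 19 members at 5 CPM or more passed in either direction, against 0.797% of 8278 genes higher and 0.435% lower. On the same scale the median ratio was 0.38 over 7 mitotic members at level, 0.09 over 11 replication members and -0.03 over all genes. 6 of the 7 mitotic members had an interval above equality, and Kif23 did not. Below 5 CPM, where a few UMIs decide a ratio, Ccnb1, Ccnb2, Cenpf, Tpx2 and Nusap1 were at least 1.5-fold higher under ICOS FC with intervals clear of equality. The 9 spleen cells under ICOS FC with at least 12 mitotic members held 30.7% of that library's mitotic UMIs, and the 4 such cells under ICOS WT held 9.72%.

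LN levels stood above spleen levels for nearly all members. With at least 2-fold asked under both labels, 38 of the 42 members at level were higher in the LN and none lower, where 4.85% of 8470 genes were higher and 0.401% lower. The exceptions at level were Cdt1, Pcna, Cenpa and Kif23. The minimum of 5 CPM was set on the mean of the 4 libraries. A gene low in the spleen thus entered only where its LN level was high, and the count of 38 leans that way. Between the spleen libraries alone, 19 of the 45 members reached 5 CPM. On the log2(CPM + 0.5) scale, the median ratio of LN over spleen was 2.96 under ICOS FC and 2.49 under ICOS WT for mitotic members, 1.85 and 1.56 for replication members, and 0.11 and 0.12 for all genes at level. The 2 labels share no library here.

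**Figure D3:**
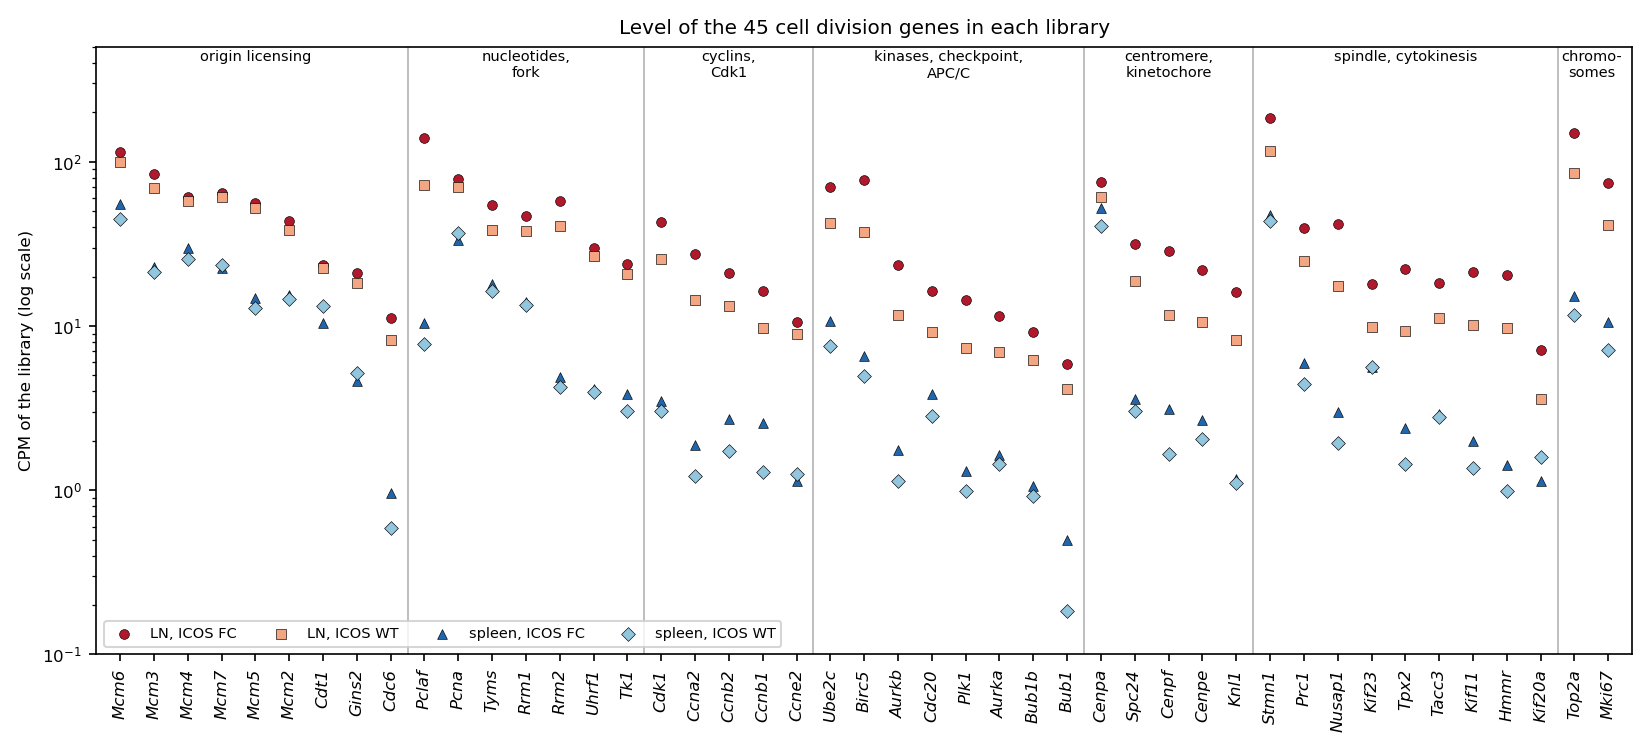
CPM (log axis) of each of the 45 members in the 4 libraries, grouped by role and ordered within a role by mean level. LN points lie above spleen points for every member, least so for Cenpa at 75.3 and 60.7 CPM in the LN against 52.6 and 40.5 CPM in the spleen.

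None of the 9 members of origin licensing passed the rule in the LN. Their log2 ratios ran from 0.05 to 0.45, all above 0, and those of Mcm2, Mcm3, Mcm6 and Cdc6 had intervals above equality. Mcm6, a subunit of the replicative helicase (ENSMUSG00000026355.11, chr1:128331590-128359664, minus strand), had the highest mean level of them. Its LN level was 115 CPM under ICOS FC and 99.2 CPM under ICOS WT, and its spleen level 55.2 CPM under ICOS FC and 44.95 CPM under ICOS WT. The LN ratio was 0.21 [0.11, 0.31] and the spleen ratio 0.30 [0.19, 0.41], both above equality and under 1.5-fold. Mcm3, another helicase subunit, was at 83.8 CPM under ICOS FC and 69.1 CPM under ICOS WT in the LN and at 22.9 CPM under ICOS FC and 21.4 CPM under ICOS WT in the spleen. For Mcm4 the LN values were 60.9 CPM under ICOS FC and 58.1 CPM under ICOS WT, and the spleen values 29.9 CPM under ICOS FC and 25.5 CPM under ICOS WT. These 3 helicase transcripts were about 2 to 4 times as high in the LN as in the spleen. They were widespread: Mcm6 was seen in 32.9% of cells under ICOS FC and 29.0% under ICOS WT in the LN, and mitotic-set cells held 47.1% of its LN UMIs under ICOS FC and 44.4% under ICOS WT. The other helicase subunits Mcm2, Mcm5 and Mcm7 and the GINS subunit Gins2 ranged from 21.1 to 64.7 CPM under ICOS FC and from 18.3 to 60.9 CPM under ICOS WT in the LN. Cdc6 and Cdt1 load the helicase. Cdc6 was at 11.1 CPM under ICOS FC and 8.18 CPM under ICOS WT in the LN, and at 0.956 CPM under ICOS FC and 0.589 CPM under ICOS WT in the spleen, the widest LN to spleen gap of the group with log2 ratios of 3.54 under ICOS FC and 3.796 under ICOS WT. Cdt1 had the narrowest LN ratio of all members, 0.05 [-0.16, 0.26], and a spleen ratio of -0.34 [-0.57, -0.12], below equality.

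Among the 7 genes of nucleotide supply and the replication fork, Pclaf stood apart. Pclaf encodes a PCNA-binding protein of the fork (ENSMUSG00000040204.6, chr9:65890237-65903266, plus strand). It was at 139 CPM under ICOS FC and 72.0 CPM under ICOS WT in the LN, and at 10.4 CPM under ICOS FC and 7.76 CPM under ICOS WT in the spleen. Its LN ratio was 0.95 [0.85, 1.06] and its spleen ratio 0.43 [0.17, 0.69]. Like a mitotic gene it sat in few cells, seen in 8.62% of cells under ICOS FC and 6.38% under ICOS WT, with 95.5% of its LN UMIs under ICOS FC and 92.9% under ICOS WT in mitotic-set cells. Pcna, the clamp itself, had 78.9 CPM under ICOS FC and 70.7 CPM under ICOS WT in the LN and 33.5 CPM under ICOS FC and 37.0 CPM under ICOS WT in the spleen. It was seen in 25.7% of cells under ICOS FC and 26.9% under ICOS WT of the LN and its ratios pointed apart, 0.16 [0.04, 0.28] in the LN and -0.14 [-0.27, -0.01] in the spleen. Tyms, which makes thymidylate, was at 54.4 CPM under ICOS FC and 38.2 CPM under ICOS WT in the LN and at 17.98 CPM under ICOS FC and 16.4 CPM under ICOS WT in the spleen, with an LN ratio of 0.51 [0.36, 0.66]. The ribonucleotide reductase subunits Rrm1 and Rrm2, thymidine kinase Tk1 and the DNA methylation factor Uhrf1 had LN ratios of 0.16 to 0.50, and none passed. Rrm2, the subunit that is made in S phase, had 93.1% of its LN UMIs under ICOS FC and 85.4% under ICOS WT in mitotic-set cells, and Rrm1 had 72.1% of its LN UMIs under ICOS FC and 62.5% under ICOS WT.

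The cyclins and Cdk1 split by phase. Ccne2, a cyclin of the G1 to S transition and a replication member, had an LN ratio of 0.23 [-0.09, 0.57], whereas the other 4 genes passed the rule. Cdk1, the kinase that drives mitosis (ENSMUSG00000019942.13, chr10:69335146-69352938, minus strand), was at 43.0 CPM under ICOS FC and 25.5 CPM under ICOS WT in the LN, and at 3.504 CPM under ICOS FC and 3.05 CPM under ICOS WT in the spleen. Ccna2, cyclin A2, was at 27.4 CPM under ICOS FC and 14.4 CPM under ICOS WT in the LN, against 1.88 CPM under ICOS FC and 1.21 CPM under ICOS WT in the spleen. Ccnb2, a B-type cyclin, was at 21.0 CPM under ICOS FC and 13.2 CPM under ICOS WT in the LN and at 2.73 CPM under ICOS FC and 1.73 CPM under ICOS WT in the spleen. Their LN ratios were 0.76 [0.58, 0.94] for Cdk1, 0.93 [0.70, 1.17] for Ccna2 and 0.67 [0.42, 0.93] for Ccnb2. Ccnb1, the main partner of Cdk1 at mitotic entry, was at 16.3 CPM under ICOS FC and 9.70 CPM under ICOS WT, a ratio of 0.75 [0.46, 1.05], but at -0.06 with clusters weighted equally. In the LN most UMIs of these genes lay in set cells, and in the spleen under ICOS WT most did not. For Ccna2, cells with at least 5 other mitotic members held 97.9% of its LN UMIs under ICOS FC and 93.5% under ICOS WT, and 79.2% of its spleen UMIs under ICOS FC and 30.3% under ICOS WT. Spleen shares under ICOS FC were mixed, and that of Ccna2 was the highest of the group. The others were 64.9% for Ccnb2, 56.9% for Ccnb1, 38.4% for Cdk1 and 28.1% for Ccne2.

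Of the 8 mitotic kinases, checkpoint and APC/C genes, 6 were higher in the LN under ICOS FC. Ube2c, the ubiquitin-conjugating enzyme of the APC/C, was at 70.5 CPM under ICOS FC and 42.5 CPM under ICOS WT in the LN, and at 10.7 CPM under ICOS FC and 7.54 CPM under ICOS WT in the spleen. Birc5, or survivin, a subunit of the chromosomal passenger complex (ENSMUSG00000017716.15, chr11:117849251-117855743, plus strand), was at 77.4 CPM under ICOS FC and 37.4 CPM under ICOS WT in the LN and at 6.55 CPM under ICOS FC and 4.93 CPM under ICOS WT in the spleen. LN cells held 11.7 UMIs per cell with a UMI under ICOS FC and 6.53 under ICOS WT of Birc5. Aurkb, the kinase of the same complex, was at 23.5 CPM under ICOS FC and 11.6 CPM under ICOS WT in the LN and at 1.77 CPM under ICOS FC and 1.14 CPM under ICOS WT in the spleen. The LN ratios were 0.73 [0.59, 0.87] for Ube2c, 1.05 [0.91, 1.20] for Birc5 and 1.02 [0.76, 1.28] for Aurkb, and Aurkb was at -0.21 when cells were thinned to 2000 UMIs. Plk1, a Polo-like kinase, had LN levels of 14.4 CPM under ICOS FC and 7.38 CPM under ICOS WT. Cdc20, which activates the APC/C, had LN levels of 16.4 CPM under ICOS FC and 9.17 CPM under ICOS WT. Aurka, the centrosomal Aurora kinase, had 11.5 CPM under ICOS FC and 6.98 CPM under ICOS WT in the LN with a ratio of 0.73 [0.38, 1.08], but was below equality, at -0.13, -0.05 and -0.28, with thinning, with equal cell weights and with equal cluster weights. The checkpoint kinases Bub1 and Bub1b were the lowest of the group, at 5.89 CPM under ICOS FC and 4.12 CPM under ICOS WT for Bub1 and 9.23 CPM under ICOS FC and 6.18 CPM under ICOS WT for Bub1b, with ratios of 0.51 and 0.58 that did not reach 1.5-fold.

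At the centromere, 4 of 5 genes were higher in the LN under ICOS FC and Cenpa was not. Cenpa, the histone H3 variant that marks the centromere (ENSMUSG00000029177.9, chr5:30666777-30674830, plus strand), was at 75.3 CPM under ICOS FC and 60.7 CPM under ICOS WT in the LN, and at 52.6 CPM under ICOS FC and 40.5 CPM under ICOS WT in the spleen. The LN ratio was 0.31 [0.19, 0.43] and the spleen ratio 0.38 [0.26, 0.49]. It was the mitotic member with the lowest share of its UMIs in mitotic-set cells of the LN, seen in 25.9% of cells under ICOS FC and 26.7% under ICOS WT in the LN and in 19.3% of cells under ICOS FC and 18.5% under ICOS WT in the spleen. Cells with at least 5 other mitotic members held 7.20% of its spleen UMIs under ICOS FC and 3.45% under ICOS WT. Spc24, part of the NDC80 kinetochore complex, was at 31.5 CPM under ICOS FC and 18.8 CPM under ICOS WT in the LN and at 3.57 CPM under ICOS FC and 3.02 CPM under ICOS WT in the spleen. Cenpf, a large kinetochore protein made in G2 phase, was at 28.5 CPM under ICOS FC and 11.6 CPM under ICOS WT in the LN and at 3.11 CPM under ICOS FC and 1.66 CPM under ICOS WT in the spleen. Its LN ratio of 1.29 [1.04, 1.55] was the highest of the 45 members, and that of Spc24 was 0.74 [0.53, 0.96]. The kinetochore motor Cenpe was at 21.98 CPM under ICOS FC and 10.6 CPM under ICOS WT in the LN, a ratio of 1.06 [0.79, 1.33] that came to -0.01 with clusters weighted equally. The scaffold Knl1 was at 16.2 CPM under ICOS FC and 8.24 CPM under ICOS WT.

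All 9 spindle and cytokinesis genes were higher in the LN under ICOS FC. Stmn1, stathmin (ENSMUSG00000028832.11, chr4:134468320-134473843, plus strand), had the highest mean level of all members. It was at 184 CPM under ICOS FC and 116 CPM under ICOS WT in the LN, and at 47.1 CPM under ICOS FC and 43.6 CPM under ICOS WT in the spleen. The LN ratio was 0.67 [0.58, 0.75] and the spleen ratio 0.11 [-0.0035, 0.22]. Prc1, which bundles microtubules at the midzone, was at 39.5 CPM under ICOS FC and 24.9 CPM under ICOS WT in the LN and at 5.98 CPM under ICOS FC and 4.45 CPM under ICOS WT in the spleen. For Nusap1, a spindle-associated protein, the LN levels were 41.8 CPM under ICOS FC and 17.4 CPM under ICOS WT and the spleen levels 3.01 CPM under ICOS FC and 1.95 CPM under ICOS WT. The LN ratios of Prc1 and Nusap1 were 0.67 [0.48, 0.85] and 1.26 [1.06, 1.47]. The spindle assembly factor Tpx2, which activates Aurora A, was at 22.2 CPM under ICOS FC and 9.30 CPM under ICOS WT in the LN, a ratio of 1.25 [0.97, 1.54]. Hmmr, a microtubule-binding protein, was at 20.3 CPM under ICOS FC and 9.70 CPM under ICOS WT, and cells with at least 5 other mitotic members held 98.3% of its LN UMIs under ICOS FC and 96.6% under ICOS WT, the highest share of any member under either label. Among the kinesins, Kif11, the motor that separates spindle poles, was at 21.2 CPM under ICOS FC and 10.2 CPM under ICOS WT in the LN. Kif23, a motor of the cytokinetic midbody, was at 18.003 CPM under ICOS FC and 9.84 CPM under ICOS WT in the LN and at 5.63 CPM under ICOS FC and 5.59 CPM under ICOS WT in the spleen. Kif20a, another midzone motor, was the lowest at 7.10 CPM under ICOS FC and 3.59 CPM under ICOS WT. The centrosomal protein Tacc3 was at 18.3 CPM under ICOS FC and 11.2 CPM under ICOS WT.

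The 2 genes of chromosome structure were higher as well. Top2a, the topoisomerase that untangles sister chromatids (ENSMUSG00000020914.17, chr11:98992943-99024189, minus strand), was at 150.4 CPM under ICOS FC and 85.3 CPM under ICOS WT in the LN, and at 15.3 CPM under ICOS FC and 11.7 CPM under ICOS WT in the spleen. Mki67, the Ki-67 protein that coats mitotic chromosomes and is the usual marker of cycling cells, was at 73.9 CPM under ICOS FC and 41.2 CPM under ICOS WT in the LN and at 10.6 CPM under ICOS FC and 7.14 CPM under ICOS WT in the spleen. The LN ratios were 0.82 [0.72, 0.92] and 0.84 [0.70, 0.98], and the spleen ratios 0.38 [0.17, 0.60] and 0.57 [0.31, 0.84]. Almost equal shares of LN cells had a Mki67 UMI, 10.6% of cells under ICOS FC and 10.3% under ICOS WT, at 5.84 UMIs per cell with a UMI under ICOS FC and 3.16 under ICOS WT. For Top2a the shares were 14.9% of cells under ICOS FC and 13.4% under ICOS WT, at 8.49 UMIs per cell with a UMI under ICOS FC and 5.05 under ICOS WT. Cells with a single UMI are among those counted, and the part of RNA free in the droplets was not tested.

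The share of set cells differed among the deposited LN clusters. Cluster 4, the one with the most UMIs per cell (median 12166 under ICOS FC and 13388 under ICOS WT), had 37 mitotic-set cells of 217 under ICOS FC (17.1%) and 21 of 138 under ICOS WT (15.2%). It held 32.1% and 30.1% of the mitotic UMIs of those libraries. By the marker lists it was high in effector Treg genes, which summed to 7305 CPM under ICOS FC and 5439 CPM under ICOS WT in it. Cluster 0, the other cluster high in them at 6365 and 5580 CPM, had 6.61% and 6.10% set cells. Clusters 1 and 3, with effector sums of 716 and 1151 CPM under ICOS FC and 693 and 846 CPM under ICOS WT, had 1.21% and 2.73% set cells under ICOS FC and 0.474% and 0.730% under ICOS WT. In cluster 5, which was high in interferon response genes, no set cell was found among 104 cells under ICOS FC and 119 under ICOS WT, which allows shares of up to 3.48% and 3.05% (exact binomial). Clusters 2, 6 and 7, with effector sums of 2288, 3626 and 2758 CPM under ICOS FC and 2115, 2882 and 2393 CPM under ICOS WT, had 6.33%, 16.3% and 8.77% set cells under ICOS FC and 2.56%, 24.2% and 9.09% under ICOS WT, so the shares did not follow the effector sums throughout. In every cluster the intervals of the 2 labels overlapped.

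**Figure D4:**
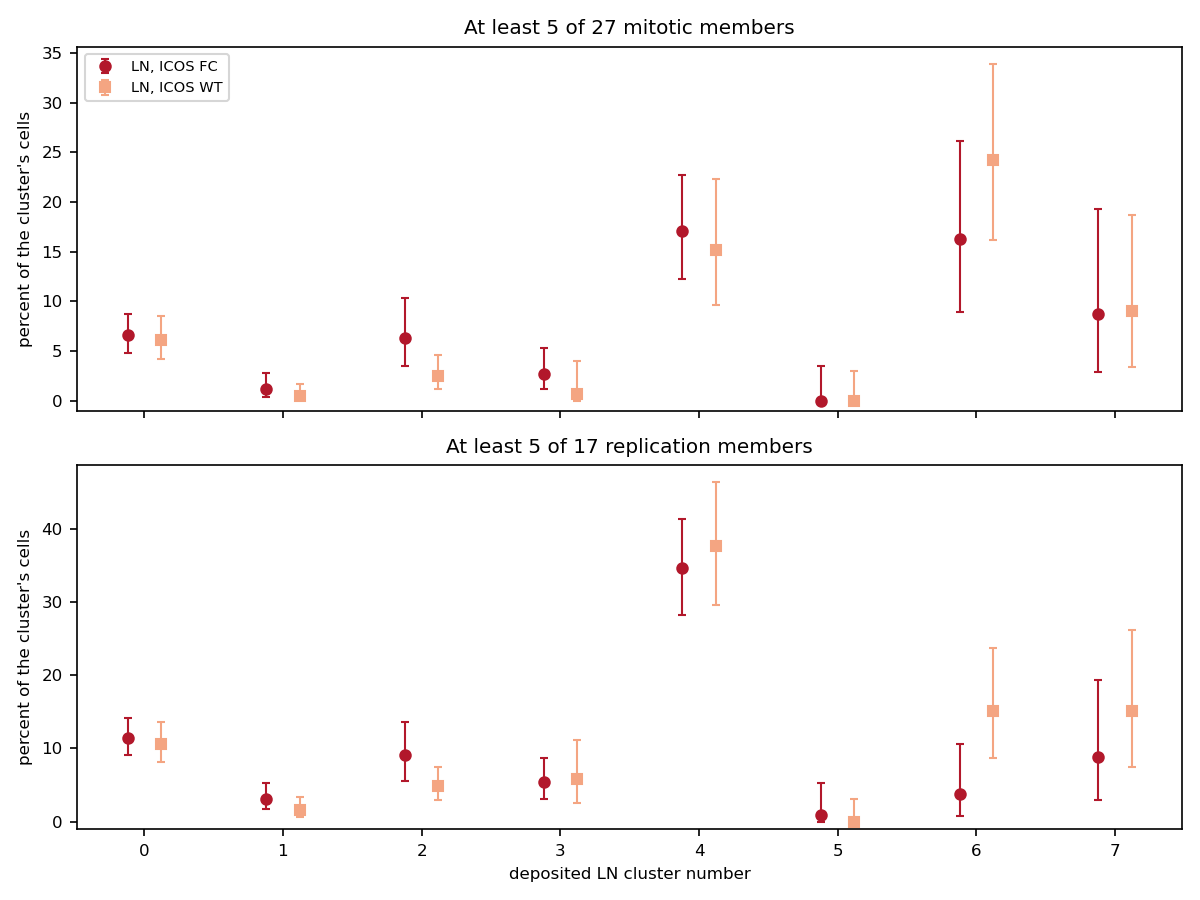
Percent of the cells of each deposited LN cluster with at least 5 mitotic members (top) or at least 5 replication members (bottom), with exact binomial 95% intervals, for the libraries labelled ICOS FC (circles, left) and ICOS WT (squares, right). Cluster 4 stands high in both panels at 17.1% and 15.2% in the top one, and cluster 6, at 16.3% and 24.2%, is high in the top panel with wide intervals.

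The level of mitotic members within a cluster was higher under ICOS FC in 7 of 8 LN clusters. The clusters are parts of the same 2 libraries, so they are not repeats, and these levels are given without intervals. The level was 834 CPM under ICOS FC and 603 CPM under ICOS WT in cluster 0, and 1356 and 380 CPM in cluster 2. In cluster 1 it was 335 and 90.1 CPM, with 5 and 2 set cells. In cluster 3 it was 867 CPM under ICOS FC, where 8 set cells had a median of 42469 UMIs, and 79.5 CPM under ICOS WT, where 1 set cell was found. In cluster 4 the levels were 1440 and 1018 CPM, and in cluster 7 1502 and 1219 CPM. In cluster 5 they were 64.3 and 57.4 CPM, from only 43 and 47 mitotic UMIs. Cluster 6 went the other way, with 1449 CPM under ICOS FC and 2717 CPM under ICOS WT. Its cells were shallow, with medians of 1788 UMIs under ICOS FC and 2022 under ICOS WT, and its 13 and 24 set cells had medians of 624 and 1286 UMIs. Set cells under 2000 UMIs numbered 11 under ICOS FC and 19 under ICOS WT in the LN, and without all cells under 2000 UMIs the LN shares of set cells were 5.78% and 4.21%.

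In the spleen mitotic-set cells made up at most 2.08% of any cluster, but replication members were detected together more often in cluster 5. Cluster 5 had 4 set cells of 228 under ICOS FC (1.75%) and 4 of 192 under ICOS WT (2.08%). At least 5 replication members were detected in 7.89% and 12.5% of its cells, against 1.15% and 1.38% of all spleen cells. Cluster 2 had 7 set cells under ICOS FC and 11 under ICOS WT. Cluster 6 held 309 mitotic UMIs in 117 cells under ICOS FC and 16 in 47 cells under ICOS WT, and under ICOS FC 1 set cell was found there.

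The deposited phase calls counted many more cells than the members did in the spleen. Phase S was given to 19.0% of LN cells under ICOS FC and 17.2% under ICOS WT, and to 34.7% and 34.4% of spleen cells. Phase G2M was given to 4.21% of LN cells under ICOS FC and 3.69% under ICOS WT, and to 7.67% and 6.37% of spleen cells. Called by phase, the LN thus held a smaller share of S and G2M cells than the spleen, while its member levels and shares of set cells were several times higher. The calls come from a separate table for each tissue, so their shares may not be on the same scale. Of the LN cells called S, 40.2% under ICOS FC and 40.1% under ICOS WT had at least 5 replication members, against 2.88% and 3.497% of spleen cells called S. No replication member had a UMI in 6.87% of LN S cells under ICOS FC and 5.50% under ICOS WT, against 24.3% and 18.2% of spleen S cells. Most spleen cells called S thus carried few or none of these 17 transcripts. Of LN cells called G2M, 59.8% under ICOS FC and 45.7% under ICOS WT had at least 5 mitotic members, against 2.20% of spleen cells under either label. No mitotic UMI was seen in 8.05% of LN G2M cells under ICOS FC and 14.3% under ICOS WT, against 37.7% and 35.8% of spleen G2M cells. Spleen cluster 3 showed the gap most, with 44.9% and 45.05% of its cells called S and 18.1% and 15.9% called G2M, and 1 set cell under ICOS FC and none of 535 cells under ICOS WT, which allows up to 0.687%.

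Phase calls also placed dividing LN cells unevenly. Of the LN mitotic-set cells, 75 of 127 under ICOS FC were called S and 52 G2M, and under ICOS WT 62 of 96 were called S, 32 G2M and 2 G1. The cells called G2M held 66.0% of LN mitotic UMIs under ICOS FC and 54.2% under ICOS WT. Their mitotic level was 8137 and 7026 CPM, against 97.9 and 102 CPM in cells called G1. No source used here names the genes behind the phase scores, and lists in common use hold many of these members, so levels by phase are a description only. The scores also read RNA that is free in the droplets, and its part in the spleen calls was not tested.

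**Figure D5:**
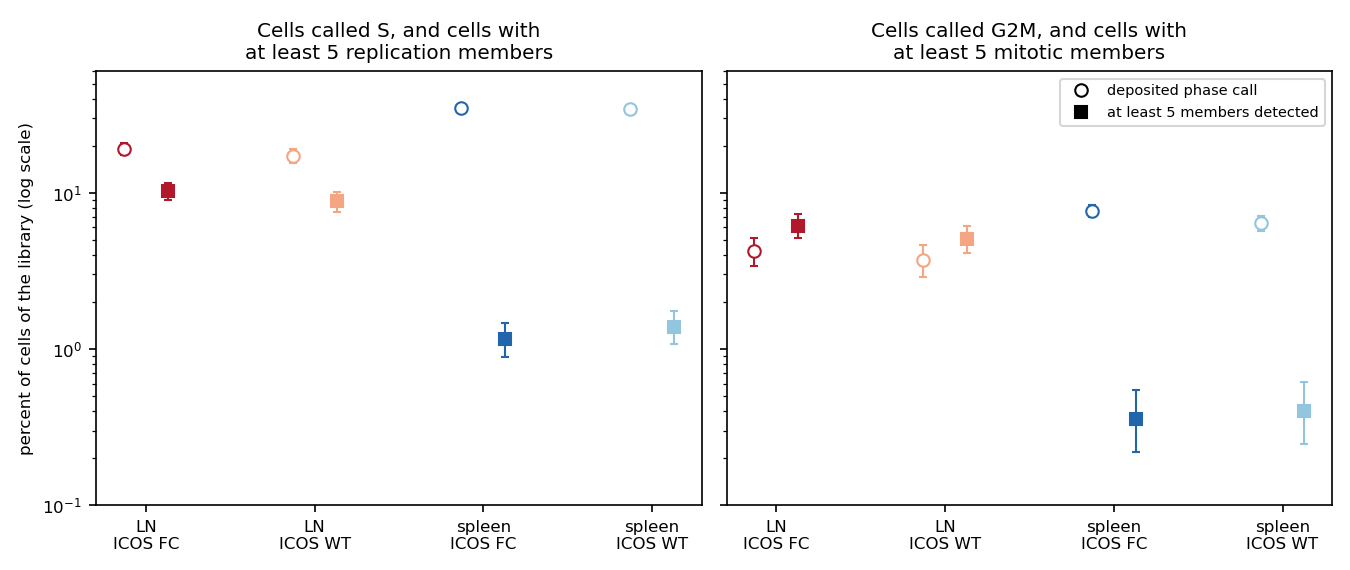
Percent of the cells of each library (log axis) with the deposited call S (left, open circles) or G2M (right, open circles), beside the percent with at least 5 replication or mitotic members detected (filled squares), with exact binomial 95% intervals. In the LN under ICOS FC 4.21% were called G2M and 6.15% had 5 mitotic members, and 19.0% were called S and 10.2% had 5 replication members, and in the spleen the calls exceed the set cells by more than 10 times (34.7% called S and 1.15% with 5 replication members under ICOS FC).

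Of the further lists of cell cycle genes, that of mitosis held the most genes that were higher under ICOS FC in the LN. Of its 30 genes, 23 were at level and 12 were higher under ICOS FC, among them Melk, a mitotic kinase, at 12.5 CPM under ICOS FC and 5.25 CPM under ICOS WT, the chromokinesin Kif4 at 7.91 CPM under ICOS FC and 3.12 CPM under ICOS WT, Cdca3, a trigger of mitotic entry, at 23.8 CPM under ICOS FC and 11.4 CPM under ICOS WT, and the kinase Pbk at 13.6 CPM under ICOS FC and 6.38 CPM under ICOS WT. The 3 most abundant of this list did not pass, and 2 of them were lower in CPM under ICOS FC: Hmgb2, a chromatin protein, was at 860.3 CPM under ICOS FC and 684 CPM under ICOS WT, the condensin subunit Smc4 at 393 CPM under ICOS FC and 422 CPM under ICOS WT, and securin, Pttg1, at 66.6 CPM under ICOS FC and 83.0 CPM under ICOS WT. Of 24 further replication genes, all at level, only Cdc45, a helicase cofactor, was higher, at 13.3 CPM under ICOS FC and 8.57 CPM under ICOS WT. Dut, which clears dUTP, had 196 CPM under ICOS FC and 151 CPM under ICOS WT, the histone mRNA-binding protein Slbp 109.7 CPM under ICOS FC and 95.4 CPM under ICOS WT, and the histone chaperone Nasp 98.0 CPM under ICOS FC and 92.7 CPM under ICOS WT. No gene of either list was lower by the rule of size, where 1.69% of all 8555 genes at level were higher and 1.82% lower. In the spleen 1 of 9 further mitotic genes at level and 0 of 20 replication genes were higher, against 0.797% of all 8278 genes. The 1 was Cdca8, a passenger complex subunit, at 7.36 CPM under ICOS FC and 4.49 CPM under ICOS WT.

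Among regulators that act before S phase, no G1 gene passed in the LN, and 2 of 12 inhibitors and antiproliferative genes at level did. Both of these were under 5 CPM under ICOS WT and reached the minimum mean through ICOS FC. Of 16 G1 cyclins, their kinases and E2F-pathway genes, 14 were at level in the LN and none passed in either direction. Of all 8555 genes at level 1.69% were higher and 1.82% lower, so a count of 0 does not set so short a list apart. Ccnd2, a D-type cyclin, was at 892 CPM under ICOS FC and 844 CPM under ICOS WT in the LN and at 501 CPM under ICOS FC and 588 CPM under ICOS WT in the spleen. Ccnd3, another, was at 175 CPM under ICOS FC and 228 CPM under ICOS WT in the LN, and the kinase Cdk4 at 133 CPM under ICOS FC and 111 CPM under ICOS WT. Of 13 inhibitors and antiproliferative genes, 12 were at level in the LN and 2 were higher under ICOS FC: the CDK inhibitor Cdkn1c at 7.56 CPM under ICOS FC and 3.39 CPM under ICOS WT, and Cdkn2a, which encodes INK4A and ARF, at 6.98 CPM under ICOS FC and 3.92 CPM under ICOS WT. The most abundant of that list lay between: Btg1 was at 1175 CPM under ICOS FC and 1464 CPM under ICOS WT, the quiescence factor Klf2 at 459.5 CPM under ICOS FC and 384 CPM under ICOS WT and Btg2 at 157 CPM under ICOS FC and 192 CPM under ICOS WT. For LN over spleen, 15 of 18 further mitotic genes, 14 of 23 replication genes, 4 of 14 G1 genes and 2 of 11 inhibitors were higher under both labels, and none was lower. The minimum was again on the mean of the 4 libraries, so genes low in the spleen entered only where their LN level was high. Of all 8470 genes at level 4.85% were higher and 0.401% lower.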

How the data were processed

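The authors deposited, for each tissue, a table of genes by cells and a table of cells; per the labels' protocols cells were sorted and loaded on a 10x Genomics 3′ version 3.1 kit. The build was GRCm38.p6 and the tools Seurat 3.0, Cell Ranger 4.0.0 and R 3.6.1, per the submitters' processing notes. The deposited expression values are on a natural log scale, ln(1 + UMIs per 10000 UMIs of the cell), and were turned back into whole UMIs; 100% of 17846401 spleen and 8798056 LN values above 0 came out whole within 0.001. The deposited cell tables give counts of UMIs and genes per cell, the percent of mitochondrial UMIs, cluster, library name and phase scores with phase calls; the scores were not used. Library names Control and KO were matched to ICOS WT and ICOS FC by words alone. No column of other samples was present (0).

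UMIs were summed per library to CPM. Ratios have exact conditional Poisson 95% intervals and shares exact binomial (Clopper-Pearson) 95% intervals, for counting error only. With 1 library per group no test was made. A gene was called higher or lower at a mean of at least 5 CPM, at least 1.5-fold (2-fold for LN over spleen, under both labels) and an interval clear of equality. Thinning drew 2000 UMIs per cell without replacement (seed 1), leaving out shallower cells, and 2007 and 1828 LN cells and 5762 and 4906 spleen cells were kept under ICOS FC and ICOS WT. No cells were removed, and no doublets called; no source used here says whether doublets were removed before deposit. The members and lists were chosen with earlier results of these data known. Genes named are the 3 of each role with the highest mean level and every member called in the LN, the 3 highest and the 4 called with the largest bound in each further list; others are named where a count is small or they stand apart, after their values were seen. The calling steps were tested on simulated data. Promoter windows and gene coordinates came from RefSeq and the annotation of GRCm38. Alternatives were another scaling, minimum level, weighting of cells or clusters, thinning and the removal of cells. Tools were Python 3.11.15, numpy 2.4.6, scipy 1.17.1, pandas 2.3.3 and matplotlib 3.10.9.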

Additional observations from a re-analysis of the deposited data

Results flagged for a closer look

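Pcna, the sliding clamp of replication, was flagged because its difference between labels pointed in opposite directions in the 2 tissues. The log2 ratio of ICOS FC over ICOS WT was 0.16 in the LN, with an interval of 0.04 to 0.28, and -0.14 in the spleen, with an interval of -0.27 to -0.01. Its levels were 78.9 CPM under ICOS FC and 70.7 CPM under ICOS WT in the LN, and 33.5 and 37.0 CPM in the spleen. The difference between tissues was not tested, and neither ratio reached 1.5-fold.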

How the results depend on the processing

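The number of members at level changed with the setting and is given with each count. Shares of all genes passing under the alternative settings are not given, so those counts cannot be set against a background. In the LN 26 of 45 members were higher under ICOS FC. This became 17 of 34 without the 5% of cells with most UMIs and 12 of 26 at a minimum of 20 CPM. It became 10 of 36 (and 1 lower) with cells thinned to 2000 UMIs. With the mean CPM of cells it was 7 of 42 and with clusters weighted equally 6 of 45, both without an interval. The spleen count of 0 of 19 became 5 of 45 with no minimum level and 3 of 21 with clusters weighted equally. It became 1 of 20 with median-of-ratios scaling or with cells under 5% mitochondrial UMIs. Without cells under 2000 UMIs, a setting chosen after seeing the data, it was 1 of 19. The LN over spleen count of 38 of 42 became 25 of 35 with the mean CPM of cells and 15 of 27 with thinning. At 20 CPM it was 15 of 17, and without the top 5% of cells 10 of 24. The spleen median log2 ratio turned to -0.11 for mitotic and -0.028 for replication members without the top 5% of cells, and to -0.040 and -0.076 with the mean CPM of cells. In the LN the ratio of Ccnb1 turned to -0.061 and that of Cenpe to -0.0098 with clusters weighted equally, that of Aurkb to -0.21 with thinning, and that of Aurka to -0.13 with thinning, -0.053 with the mean CPM of cells and -0.28 with clusters weighted equally. The cause of these changes was not tested.

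Shares of mitotic-set cells were 10.3% under ICOS FC and 9.49% under ICOS WT in the LN, and 1.66% and 2.002% in the spleen, at 3 members, and 4.70%, 3.48%, 0.186% and 0.220% at 8 members in the same order. With 5 replication members they were 10.2%, 8.80%, 1.15% and 1.38%. Thinned, they were 3.04%, 1.53%, 0.139% and 0.0815%, and without the top 5% of cells 2.80%, 2.61%, 0.05337% and 0.105%. Thinned at 3 members, chosen after seeing the data, they were 3.94%, 2.63% and, in the spleen under ICOS WT, 0.204%. Without LN clusters 6 and 7 the LN share under ICOS WT was 3.81%, and among cells with a Foxp3 UMI the spleen share under ICOS FC was 0.620%. Leaving out ribosomal and mitochondrial genes moved the LN over spleen median of all genes by -0.16 under ICOS FC and -0.18 under ICOS WT, and median-of-ratios scaling by -0.12 and -0.15. No paired analysis was possible because each group has 1 library. In the spleen few UMIs per member stand behind a ratio.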

Other observations

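Genes outside the 45 members whose LN UMIs sat mostly in mitotic-set cells were ranked, after their values were seen, among genes with at least 100 UMIs in both libraries. Hist1h1b, a linker histone, had 97.9% of its 2286 UMIs in mitotic-set cells under ICOS FC and 92.6% of its 841 UMIs under ICOS WT. The core histone genes Hist1h2ap and Hist1h2ae had 95.6% and 93.9% under ICOS FC and 90.2% and 86.4% under ICOS WT. Cdca3 and Cdca8, which act in mitosis, had 96.1% and 91.2% under ICOS FC and 91.2% and 85.1% under ICOS WT.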
